A study of Mus musculus with 20 samples.

Results

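The genes described here are 10 genes that neurons switch on within minutes of synaptic activity, outside the AP-1 family: Egr1, Egr2, Egr3, Egr4, Nr4a1, Nr4a2, Nr4a3, Npas4, Arc and Ier2. They were found by matching the RefSeq accession that names each probe, without its version, to the gene symbol. This gave 11 probes for the 10 genes, among 20968 gene symbols on the array. Nr4a2 had 2 probes and each of the other 9 genes had 1. The brain samples came from 20 male C57BL/6J mice in 4 groups of 5, each hybridised to 1 one-colour array. Tat+ mice carried a GFAP promoter-controlled Tet-binding protein together with a TRE promoter-Tat transgene, and Tat- mice carried the GFAP promoter-controlled Tet-binding protein alone. Tat is the transactivator protein of HIV-1, and the GFAP promoter places its induction by doxycycline mainly in astrocytes. Every mouse, controls included, received doxycycline at 100 mg/kg for 7 days. Tat-/Meth and Tat+/Meth mice received methamphetamine (Meth) at 2 mg/kg for 7 days, while Tat-/Sal and Tat+/Sal mice received 0.9% saline. By the methods of the study, all 20 mice, after 7 days without drug, were challenged with Meth at 1 mg/kg, and the caudate putamen was dissected 1 h later at an age of 3 to 5 months. The labels instead name the left hemisphere of a perfused brain at 6 to 7 weeks of age, and the design text places sampling 24 h after the last injection. By that account of the methods no group went without the challenge, and the response to the challenge itself cannot be read from these arrays.

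Immediate early genes are transcribed without new protein synthesis, because the factors that start them are already present and are activated by calcium and kinase signals. In striatal projection neurons, dopamine receptor and glutamate receptor signals both feed into this response, and psychostimulants are known inducers of it. CREB binds the cyclic AMP response element (CRE), and serum response factor binds the CArG box. The Egr proteins are zinc finger transcription factors, the Nr4a proteins are orphan nuclear receptors, Npas4 is a transcription factor of the bHLH-PAS family induced by calcium entry, and Arc is a cytoplasmic protein that acts at synapses in the removal of AMPA receptors. Ier2 is a small nuclear protein of the same early wave.

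The bases before the transcription starts are shown because the elements named above are searched for there. RefSeq promoter sequences of build GRCm38.p6 were at hand for 6 of the 10 genes, namely Egr2, Egr4, Nr4a1, Nr4a2, Nr4a3 and Npas4. In the 250 bases before each start, the CRE half-site TGACG was searched on both strands, and all 6 genes held it at least 2 times in some window. Of 27025 mouse genes with such a sequence, 19.8% held TGACG at least once and 4.46% at least 2 times. The full CRE, TGACGTCA, was found in 0 of the 6 genes and in 1.77% of all genes. The CArG box was found in Egr2 among the 6 and in 1.62% of all genes. The EGR site GCGNGGGCG was found in Nr4a1 and Nr4a2, and in 5.33% of all genes. A match is a string of letters, was not tested as a binding site and was not set against any array value, and matches of TGACGTCA would count as TGACG matches too. The following sequences run 5′ to 3′ on the gene's strand and end at the base before the start, with capitals marking TGACG or, on the other strand, its complement CGTCA.
Npas4, chr19:4989972-4990221, minus strand: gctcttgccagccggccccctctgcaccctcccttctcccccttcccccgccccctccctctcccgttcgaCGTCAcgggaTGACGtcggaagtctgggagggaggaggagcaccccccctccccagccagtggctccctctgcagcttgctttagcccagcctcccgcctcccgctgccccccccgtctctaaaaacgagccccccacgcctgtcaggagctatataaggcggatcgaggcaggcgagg
Nr4a1, chr15:101266596-101266845, plus strand: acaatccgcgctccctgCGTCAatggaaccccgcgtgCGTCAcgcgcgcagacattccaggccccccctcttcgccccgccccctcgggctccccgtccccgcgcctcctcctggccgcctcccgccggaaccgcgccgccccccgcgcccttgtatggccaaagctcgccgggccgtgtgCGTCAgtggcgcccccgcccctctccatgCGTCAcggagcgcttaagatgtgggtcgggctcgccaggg
Nr4a3, chr4:48045055-48045304, plus strand: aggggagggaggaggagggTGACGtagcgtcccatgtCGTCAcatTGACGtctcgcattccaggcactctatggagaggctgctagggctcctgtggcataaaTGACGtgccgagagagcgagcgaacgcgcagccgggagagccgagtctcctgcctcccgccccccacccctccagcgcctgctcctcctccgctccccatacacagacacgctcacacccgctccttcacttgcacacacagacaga
Egr4, chr6:85513590-85513839, minus strand: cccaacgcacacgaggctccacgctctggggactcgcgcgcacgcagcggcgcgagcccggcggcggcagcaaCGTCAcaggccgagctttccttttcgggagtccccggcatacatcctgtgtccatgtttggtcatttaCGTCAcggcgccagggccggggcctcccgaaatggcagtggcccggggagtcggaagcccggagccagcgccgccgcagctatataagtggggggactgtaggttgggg
In Npas4 the matches began 179 and 169 bases before the start, separated by a few bases, and in Nr4a3 3 of the 4 matches lay between 231 and 205 bases before it. Nr4a1 held 4 matches, the nearest beginning 40 bases before the start. Egr2 has 5 annotated starts, whose windows overlap in part. A CArG match was in 4 of these 5 windows: 3 overlapping windows share 1 site, and the fourth holds a different one. TGACG was in those 3 overlapping windows. The next sequence is a stretch of 30 bases that holds the shared CArG match and, in capitals after it, a CRE half-site of the other strand; it begins 77 bases before one of the starts.
Egr2, chr10:67537792-67537821, plus strand: tcagtCCATATATGGgcagcgaCGTCAcgg

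The values are log2 background-subtracted signals, with the arrays brought to a common 75th percentile. Between 56.5% and 71.5% of probes on an array were well above background, the scanner software's own flag. Markers of striatum were bright, with 10 of 10 well above background on every array, while 6 or 7 of 10 cortex markers were so on every array of a group. Of the hippocampus markers and of the thalamus markers, 4 or 5 of 5 were so. The region dissected was not tested. Arrays lay on 3 slides. Slide 1 held the 5 Tat-/Meth arrays and no other, slide 2 held 5 Tat-/Sal and 3 Tat+/Meth arrays, and slide 3 held 2 Tat+/Meth and 5 Tat+/Sal arrays. The control spots at the bright corner read 14.66 to 15.06 on slide 1 against 16.80 to 17.42 on the other slides, on the log2 scale without scaling. In every comparison with Tat-/Meth, the group and slide 1 cannot be told apart. Tat+/Sal and Tat-/Sal also shared no slide, and only Tat+/Meth had arrays on both slide 2 and slide 3. The array does not measure the Tat transgene with any probe used here. In bulk tissue, fewer cells of a type and less RNA per cell cannot be told apart.

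None of the 8 genes that could be tested differed between groups by the limits used for all genes, a Benjamini-Hochberg adjusted p under 0.05 in limma and a change above 2-fold. Nr4a3 and Ier2 lay below the signal limit of 6 in the mean of every group and were tested one by one. For the Meth effect in Tat- mice (Tat-/Meth vs. Tat-/Sal), 0 of 8 genes were called, against 6.85% of the 15098 genes tested. For Tat+/Meth vs. Tat-/Meth it was 0 of 8 against 7.23%, for Tat+/Sal vs. Tat-/Sal 0 of 8 against 0.0199%, and for Tat+/Meth against either saline group 0 of 8 against 0.0%. At an unadjusted p under 0.05, 1 of the 8 genes passed for Tat-/Meth vs. Tat-/Sal, where 56.4% of all genes did. Against Tat+/Meth, 1 of the 8 passed for each of the other 3 groups, where the shares of all genes were 12.2% for Tat+/Sal, 59.3% for Tat-/Meth and 7.8% for Tat-/Sal. None of the 8 passed for Tat+/Sal vs. Tat-/Sal, where 20.5% of all genes did. The interaction, in which the Meth effect of Tat- mice is subtracted from that of Tat+ mice, was called for 0 of 8 genes against 7.44% of all genes, with 0 of the 8 at an unadjusted p under 0.05 and log2 differences between -0.24 and 0.27.

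**Figure D1:**
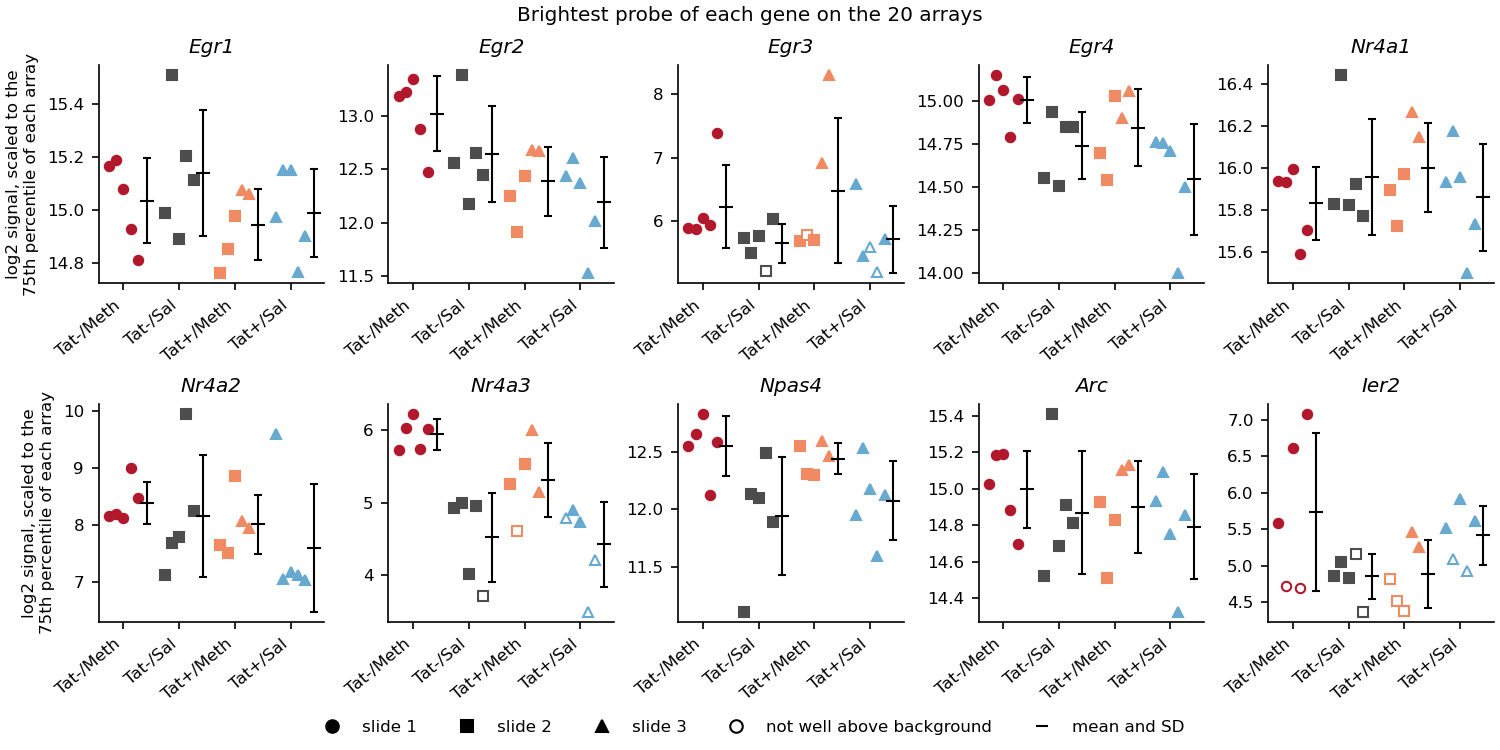
Log2 signal of the brightest probe of each of the 10 genes on 20 arrays, by group, with the mean and SD of 5 arrays beside each group. Symbols give the slide and open symbols an array on which the probe was not well above background; for Nr4a3 the 5 Tat-/Meth arrays (5.73 to 6.23) all lie above the 5 Tat-/Sal arrays (3.72 to 5.00).

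The median log2 difference of the 8 genes was 0.25 for Tat-/Meth vs. Tat-/Sal, where the median over all genes was 0.14. It was 0.25 against 0.00 over all genes for Tat+/Meth vs. Tat+/Sal, where 7 of the 8 genes had the higher mean in Tat+/Meth. It was -0.10 against -0.15 for Tat+/Meth vs. Tat-/Meth and -0.12 against -0.01 for Tat+/Sal vs. Tat-/Sal. For Egr1, Egr4, Nr4a1 and Arc, the 95% confidence intervals stayed within 2-fold in all 5 comparisons. The intervals of Nr4a2 passed 2-fold in all 5 comparisons and those of Egr3 in 4.

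**Figure D2:**
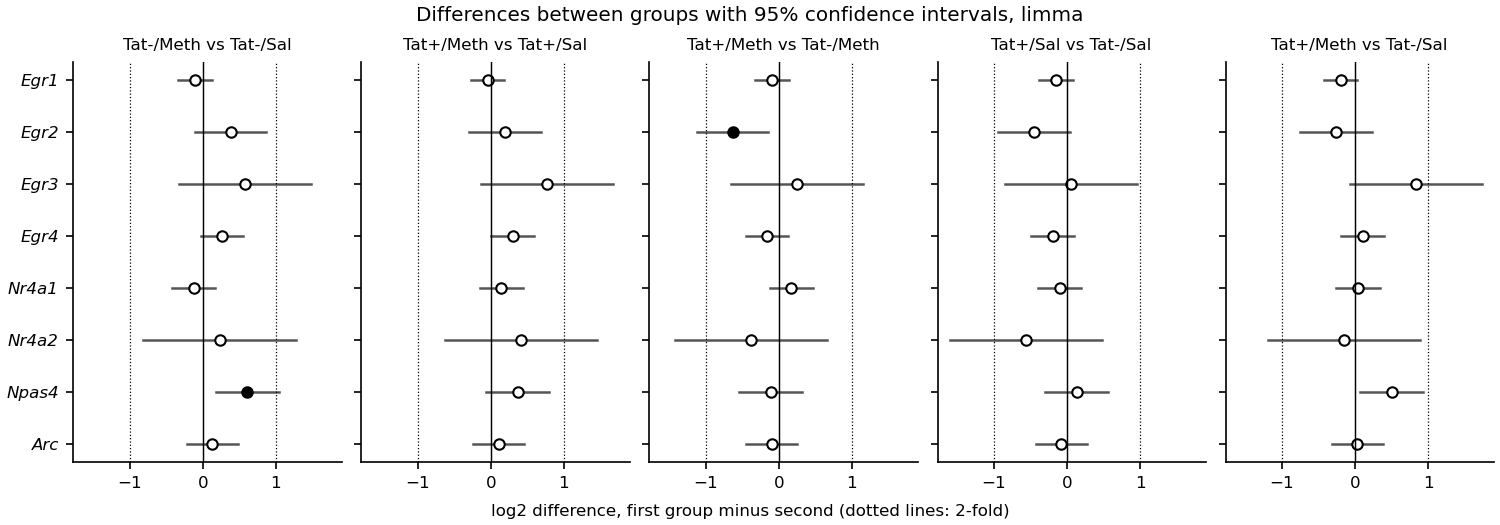
Log2 difference between groups for the 8 genes tested, with 95% confidence intervals from limma, in 5 comparisons of 5 arrays with 5. Filled points have an adjusted p under 0.05 (Npas4 in Tat-/Meth vs. Tat-/Sal at 0.61 and Egr2 in Tat+/Meth vs. Tat-/Meth at -0.63), and no point lies past the dotted lines at 2-fold.

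Among the Egr genes, Egr2, which is required for hindbrain and Schwann cell development and is induced by activity in neurons, showed the clearest difference. Its log2 signals were 13.19, 13.23, 13.35, 12.88 and 12.47 in Tat-/Meth. The Tat-/Sal arrays read 12.56, 13.38, 12.17, 12.66 and 12.45. The Tat+/Meth arrays read 12.25, 11.91, 12.44, 12.68 and 12.68, and the Tat+/Sal arrays 12.44, 12.61, 12.37, 11.53 and 12.01. The Tat-/Meth mean was the highest and the Tat+/Sal mean the lowest, and each group overlapped its neighbours. The Tat+/Meth mean of Egr2 was below the Tat-/Meth mean by -0.63 ± 0.23 (SE) on the log2 scale, with an adjusted p of 0.0289 in limma, and was not called because the change was under 2-fold. At an adjusted p under 0.05 with no limit on the fold, 54.4% of all genes passed in this comparison. The median over all genes was -0.15. Without scaling the arrays the Egr2 difference was -0.30 with an adjusted p of 0.415, where the median over all genes was 0.19.

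Egr1, the Egr gene most often used as a marker of active neurons, had group means between 14.95 ± 0.14 (SD, n = 5) in Tat+/Meth and 15.14 ± 0.24 in Tat-/Sal. Its values ran from 14.76 to 15.51 over the 20 arrays, and every group overlapped every other. Egr4 ran from 14.002 to 15.15. The Tat+/Meth arrays read 14.70, 14.54, 15.03, 14.90 and 15.06, and the Tat+/Sal arrays 14.77, 14.76, 14.71, 14.002 and 14.50. The 3 highest Tat+/Meth values exceeded every Tat+/Sal value, with a log2 difference of 0.30 ± 0.14 (SE) whose unadjusted p was 0.0442 and adjusted p 0.399 in limma, so it did not pass. Without Tat+/Sal replicate 4, the lowest array, it was 0.16 with an unadjusted p of 0.174 and an adjusted p of 0.629, and with median scaling it was 0.19 with an unadjusted p of 0.344 and an adjusted p of 0.974. Within slide 3, which held both groups, the difference was 0.44 with 2 Tat+/Meth arrays.

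Egr3, the Egr gene that depends most on sustained activity and also controls muscle spindle development, had a dim probe that was well above background on 16 of 20 arrays. Most arrays read between 5.20 and 6.04. The exceptions were 7.39 in 1 Tat-/Meth array, 6.91 and 8.30 in the 2 Tat+/Meth arrays of slide 3, and 6.59 in 1 Tat+/Sal array. The 3 Tat+/Meth arrays of slide 2 read 5.68 to 5.78. The slides within Tat+/Meth therefore did not overlap for Egr3, as was so for Egr1, Egr2, Nr4a1, Arc and Ier2, each higher on slide 3. With 3 arrays against 2, the share of all genes that separate in this way was not counted. The SD of Egr3 within groups was larger than that of 98.2% of the genes tested.

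Of the Nr4a receptors, Nr4a1 was bright and flat, with values from 15.50 to 16.44 and group means from 15.83 ± 0.18 (SD, n = 5) in Tat-/Meth to 16.003 ± 0.21 in Tat+/Meth. Nr4a3 was dim, well above background on 15 of 20 arrays and measured by 10 spots on each array. Its log2 signals were 5.73, 6.03, 6.23, 5.74 and 6.02 in Tat-/Meth. The Tat-/Sal arrays read 4.93, 5.00, 4.01, 4.96 and 3.72, the Tat+/Meth arrays 5.26, 4.61, 5.54, 6.00 and 5.15, and the Tat+/Sal arrays 4.79, 4.90, 4.73, 3.49 and 4.21. Tat-/Meth and Tat-/Sal did not overlap, with Tat-/Meth higher, as was so for 18.1% of all genes with a value in this comparison. In the Tat+ mice, 4 of 5 Meth arrays exceeded the highest saline array.

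The difference of Nr4a3 between Tat-/Meth and Tat-/Sal was 1.42 on the log2 scale, from means of 5.95 ± 0.21 and 4.53 ± 0.61 (SD, n = 5). An exact two-sided permutation test gave p = 0.00794, the smallest that 5 against 5 arrays allow, and 0.0794 after adjustment over 10 tests of Nr4a3 and Ier2. Tat+/Meth exceeded Tat+/Sal by 0.89, with an exact permutation p of 0.0317 and an adjusted p of 0.0992. Tat+/Meth was lower than Tat-/Meth by -0.64, with the same exact permutation p of 0.0317 and an adjusted p of 0.0992. Tat+/Sal and Tat-/Sal differed by -0.10, with an exact permutation p of 0.746. When all genes were fitted with no limit on the signal, limma gave Nr4a3 a difference of 1.42 ± 0.31 (SE) between Tat-/Meth and Tat-/Sal with an adjusted p of 0.00141, which passed both limits. The same fit gave 0.89 ± 0.31 with an adjusted p of 0.412 between Tat+/Meth and Tat+/Sal, and the interaction of -0.54 ± 0.44 had an adjusted p of 0.377. With background correction by normexp, which compresses dim signals, the difference between Tat-/Meth and Tat-/Sal was 0.78 and under 2-fold. The interaction was then -0.52 ± 0.13 with an adjusted p of 0.00596, also under 2-fold.

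Nr4a2 (Nurr1), which midbrain dopamine neurons need and which is also found in deep cortex and claustrum, varied more between mice than 99.0% of the genes tested. Its brightest probe read 8.16, 8.20, 8.13, 9.005 and 8.49 in Tat-/Meth. The Tat-/Sal arrays read 7.13, 7.70, 7.79, 9.95 and 8.26, the Tat+/Meth arrays 7.66, 7.52, 8.86, 8.07 and 7.96, and the Tat+/Sal arrays 9.61, 7.05, 7.18, 7.13 and 7.05. The high values were single arrays: Tat-/Sal replicate 4, Tat+/Sal replicate 1, Tat-/Meth replicate 4 and Tat+/Meth replicate 3. The second, dimmer probe was highest on the same array in each group, at 8.44, 7.96, 7.41 and 6.81. The probes gave different estimates for Tat+/Meth vs. Tat+/Sal, 0.41 ± 0.50 (SE) for the brighter and -0.01 ± 0.47 for the dimmer, and neither passed, with adjusted p of 0.792 and 0.996 when limma tested each probe on its own.

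Npas4, which governs inhibitory synapse number after activity, had log2 signals of 12.56, 12.66, 12.83, 12.13 and 12.59 in Tat-/Meth. The Tat-/Sal arrays read 11.10, 12.13, 12.10, 12.49 and 11.89. The Tat+/Meth arrays read 12.55, 12.31, 12.30, 12.60 and 12.47, and the Tat+/Sal arrays 11.95, 12.54, 12.18, 11.59 and 12.12. The Meth groups had the 2 higher means, 12.55 ± 0.26 and 12.44 ± 0.14 (SD, n = 5), and the saline groups the 2 lower, 11.94 ± 0.52 and 12.08 ± 0.35. 4 of the 5 Tat-/Meth arrays lay above all Tat-/Sal arrays. The log2 difference was 0.61 ± 0.21 (SE) with an adjusted p of 0.0191 in limma, and it was not called because it was under 2-fold. In that comparison 50.3% of all genes had an adjusted p under 0.05. Without the lowest array, Tat-/Sal replicate 1, the difference was 0.40 with an adjusted p of 0.0543, and without scaling it was 0.19 with an adjusted p of 0.506, where the median over all genes was -0.28. Between Tat+/Meth and Tat-/Sal the difference was 0.50 ± 0.21 with an unadjusted p of 0.0244 and an adjusted p of 0.640 in limma, and without Tat-/Sal replicate 1 it was 0.29 with an unadjusted p of 0.0935. On slide 2 alone, which held 5 Tat-/Sal and 3 Tat+/Meth arrays, it was 0.44. Between Tat+/Meth and Tat+/Sal Npas4 differed by 0.37, with a 95% confidence interval from -0.06 to 0.80.

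Arc ran from 14.32 to 15.41. In falling order, its group means were 14.998 ± 0.21 (SD, n = 5) in Tat-/Meth, 14.90 ± 0.25 in Tat+/Meth, 14.87 ± 0.34 in Tat-/Sal and 14.79 ± 0.29 in Tat+/Sal, and neighbours in this order differed by less than their SD. Ier2 was near background, with 11 of 20 arrays well above it. Its highest values were 7.08 and 6.61, both in Tat-/Meth, and the other 3 Tat-/Meth arrays read 5.58, 4.73 and 4.70. Tat+/Sal exceeded Tat-/Sal by 0.56, with an exact permutation p of 0.0397 and an adjusted p of 0.0992, which did not pass. These groups lay on slide 3 and slide 2. Within Tat+/Meth, Ier2 read 5.25 to 5.46 on slide 3 against 4.38 to 4.83 on slide 2. The part of the slide in the Ier2 difference was not tested.

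The mice of a group differed from each other in some of these genes together. The deviation of each array from its group mean was compared for the 45 pairs of the 10 genes, with 100000 permutations of arrays within groups, and 16 pairs had a Benjamini-Hochberg adjusted p under 0.05. Egr1, Egr2, Egr4, Nr4a1 and Arc formed 10 of these pairs, with Pearson r from 0.74 to 0.93. The share of pairs of other genes that would pass was not counted. The closest pair was Egr2 with Nr4a1, with r = 0.93 and Spearman's rho = 0.94 over 20 arrays, each with a permutation p of 1e-05, the smallest these permutations give, and an adjusted p of 0.00045. It kept r = 0.88 without the 2 arrays farthest from the median of Egr2. Egr2 with Arc had r = 0.91 and rho = 0.89, each with a permutation p of 2e-05 and an adjusted p of 0.00045, and r = 0.84 without the 2 farthest arrays. The median r over these 10 pairs was 0.80 within Tat-/Meth, 0.89 within Tat-/Sal, 0.82 within Tat+/Meth and 0.91 within Tat+/Sal, with 5 arrays each. Within Tat+/Meth, 4 of these 5 genes read higher on both arrays of slide 3 than on the 3 arrays of slide 2, with Arc at 15.10 and 15.13 against 14.51 to 14.92, while Egr4 overlapped. The share of all genes that did so was not counted. With the means of each group on each slide removed, the 10 pairs had r from 0.72 to 0.92.

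**Figure D3:**
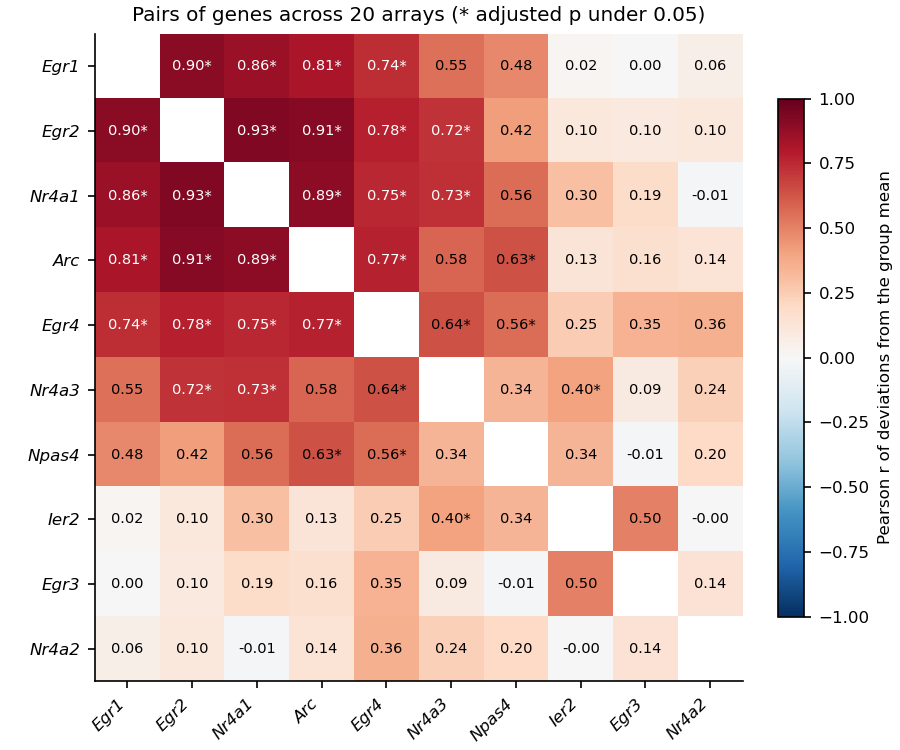
Pearson r of deviations from the group mean for the 45 pairs of genes across 20 arrays, with an asterisk at a permutation p under 0.05 after adjustment over the pairs. The block of Egr1, Egr2, Nr4a1, Arc and Egr4 has r from 0.74 to 0.93, while the rows of Egr3 and Nr4a2 hold no asterisk.

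The shared direction was visible on single arrays. In Tat-/Sal replicate 2, Egr2 was 0.74 above its group mean on the log2 scale, Arc 0.54, Nr4a1 0.48, Egr1 0.37 and Egr4 0.20. In Tat+/Sal replicate 4, Egr2 lay at -0.66 from its group mean, Egr4 at -0.55, Arc at -0.47, Nr4a1 at -0.36 and Egr1 at -0.22. The genes did not move alike on every array, and in Tat-/Meth replicate 5 Egr2 lay at -0.55 while Egr4 was at 0.008. By Pearson r, Nr4a3 passed with 3 of these 5 genes, Egr2, Egr4 and Nr4a1, and with Ier2, while Arc and Egr1 had adjusted p of 0.0567 and 0.069 by permutation. By rho, Egr4 and Ier2 did not pass (adjusted p of 0.061 and 0.0721 by permutation), while Arc did (0.0447). For Nr4a3 with Egr4, r fell from 0.64 to 0.37 without the 2 arrays farthest on the Egr4 side. With Ier2 it fell from 0.40 to 0.30 without the 2 farthest on the Nr4a3 side. With Nr4a1, Nr4a3 had r = 0.73 and rho = 0.71 over 20 arrays (permutation p of 0.00077 and 0.00131, adjusted p of 0.00307 and 0.00491). Without the 2 arrays farthest on the Nr4a1 side r was 0.71. Npas4 passed with Arc and Egr4 by Pearson r. With Egr4 it had r = 0.56 but rho = 0.32 (permutation p of 0.017 and 0.19, adjusted p of 0.0479 and 0.317), and r fell to 0.35 without the 2 arrays farthest on the Npas4 side. With Arc it had r = 0.63 and rho = 0.66 (permutation p of 0.0146 and 0.00479, adjusted p of 0.0469 and 0.0166), and r fell to 0.45 without the 2 arrays farthest on the Npas4 side. Egr3 and Nr4a2 passed with 0 of 9 partners, at r from -0.01 to 0.50 and from -0.01 to 0.36. Compared with all genes tested, the SD within groups was above that of 61.8% of genes for Egr1, 73.2% for Egr4, 73.7% for Nr4a1, 79.7% for Arc, 86.3% for Npas4 and 89.8% for Egr2.

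**Figure D4:**
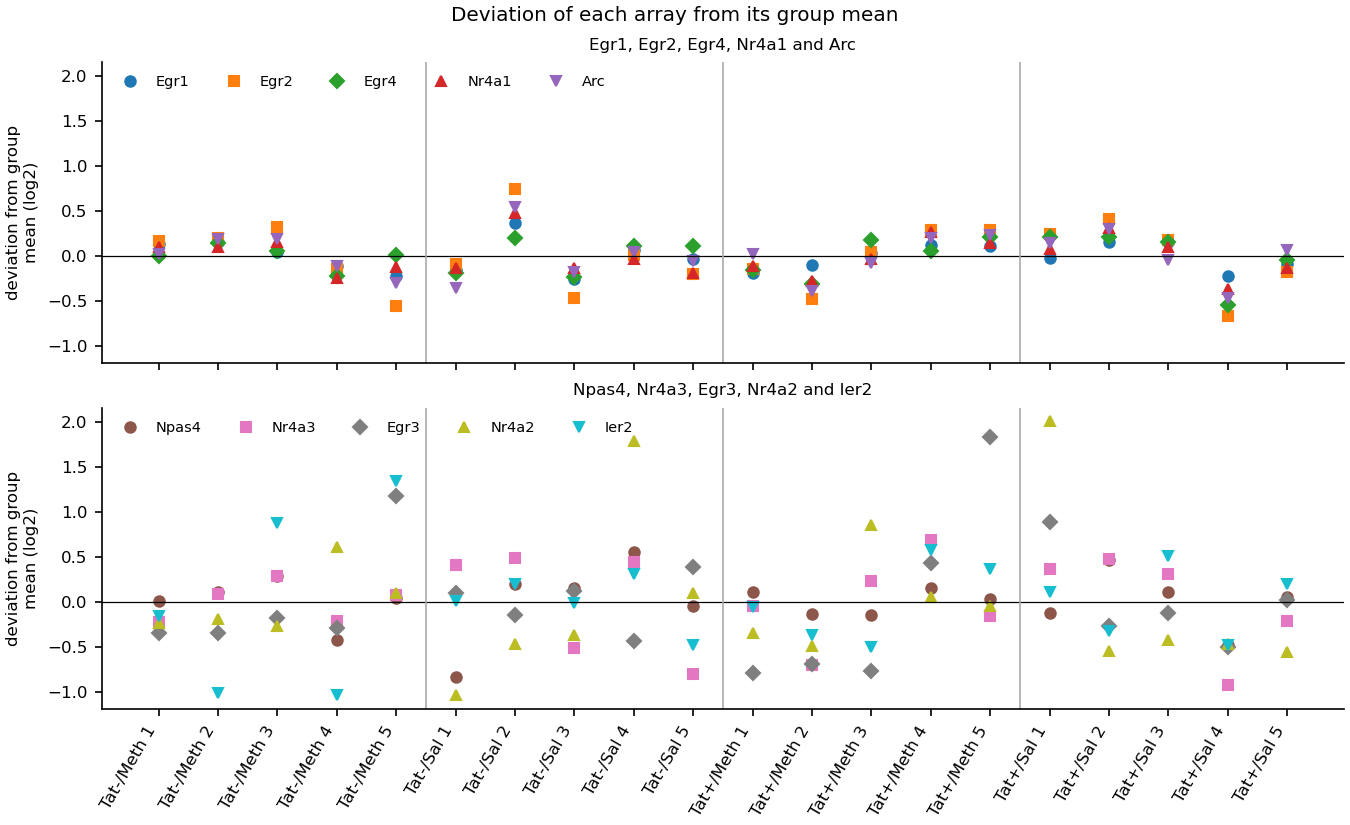
Deviation of each of the 20 arrays from its group mean on the log2 scale for the 10 genes, with vertical lines between groups and replicates in no order. Egr2, Nr4a1 and Arc are each highest in Tat-/Sal replicate 2 and lowest in Tat+/Sal replicate 4, while Nr4a2, Egr3 and Ier2 depart on single arrays.

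Other genes followed the mean deviation of the 8 tested genes. This mean was taken without scaling, so Nr4a2 and Egr3, with SDs within groups of 0.84 and 0.728, weighed most in it. It is therefore not the shared pattern of Egr1, Egr2, Egr4, Nr4a1 and Arc alone. Among 15042 other genes, the 10 whose deviations were most like the mean deviation of the 8 tested genes were Fos (r = 0.86, rho = 0.86), Rab32, Hbb-b1, Akap12, Islr, Dscam, Nrg1, Phlda1, Tmem178 and Dusp14, with r from 0.71 to 0.86 over 20 arrays. Fos is an AP-1 subunit and Hbb-b1 a haemoglobin chain. Of 42 other rapid immediate early genes, 40 had a signal above the limit, and 16 of these 40 had r above 0.5 with the mean deviation, against 1.92% of all genes. Their median r was 0.43, against 0.06 over all genes. The corresponding counts were 3 of 20 for late activity-induced genes, 0 of 24 for upstream kinases and transcription factors and 1 of 13 for partners of the proteins. These values describe the same 20 arrays from which the deviations came.

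Red blood cell genes moved with Arc. The summed signal of Hba-a1, Hbb-bt and Alas2, 3 of 4 listed markers, spanned 15.76 to 17.36 for Tat-/Meth, 15.49 to 16.28 for Tat-/Sal, 15.01 to 16.36 for Tat+/Meth and 15.68 to 16.71 for Tat+/Sal. Its deviations followed those of Arc with r = 0.72 and rho = 0.81 over 20 arrays (permutation p of 0.00011 and 8e-05, adjusted p of 0.011 and 0.008 over 100 relations of 10 marker lists with 10 genes). Without the 2 arrays farthest in red blood cell signal r was 0.72, and within slides 1, 2 and 3, after group means on each slide were removed, r was 0.54, 0.73 and 0.87. No other of the 100 relations had an adjusted p under 0.05. Egr2 and Nr4a1 had r = 0.64 each with the red blood cell sum, with adjusted p of 0.086 by permutation. The part of blood in the shared variation was not tested. The percentage of probes well above background followed Ier2 with r = 0.65, Egr3 with r = 0.55 and Nr4a3 with r = 0.46. The 75th percentile before scaling followed Nr4a3 with r = 0.53 and Nr4a2 with r = 0.41, and the median signal followed Ier2 with r = 0.53. For Arc, Egr1, Egr2, Egr4 and Nr4a1 no array measure examined reached 0.4.

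**Figure D5:**
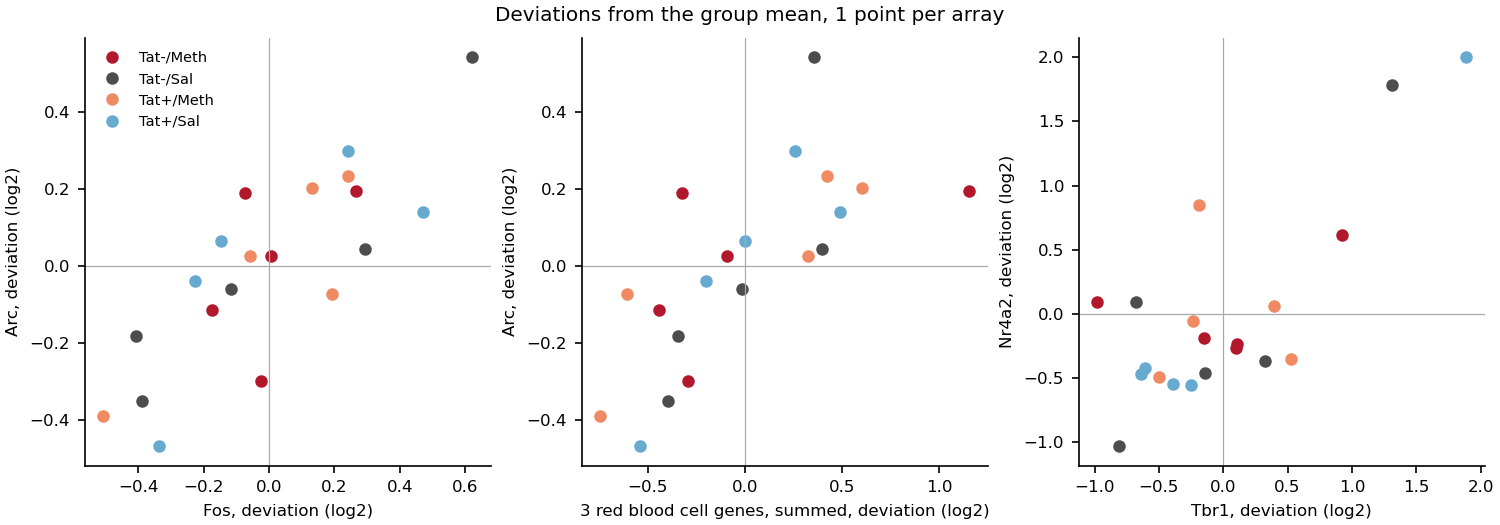
Deviations from the group mean on 20 arrays, 1 point per array, for Arc against Fos (r = 0.82), Arc against the summed signal of 3 red blood cell genes (r = 0.72) and Nr4a2 against Tbr1 (r = 0.76). The Nr4a2 relation is carried by its 2 points at the upper right, Tat+/Sal replicate 1 and Tat-/Sal replicate 4, and without the 2 arrays farthest in Tbr1 its r was 0.36.

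Nr4a2 followed a different set of genes. The gene most like it was Vxn, with r = 0.90 and rho = 0.71, and r = 0.65 without the 2 arrays farthest in Vxn. Neurod2 and Tbr1, transcription factors of cortical excitatory neurons, were also among its 10 most like genes, with r = 0.78 and 0.76 and rho = 0.51 and 0.49. Tbr1 was highest on Tat-/Sal replicate 4 at 10.46 and Tat+/Sal replicate 1 at 10.05, the arrays with the highest Nr4a2, and the other 18 arrays read 7.43 to 9.48. Slc17a7, the vesicular glutamate transporter of cortical neurons, read 8.58 and 8.72 on these 2 arrays and at most 7.62 on the others. Both were singled out after their values were seen, and over the 10 cortex markers r with Nr4a2 ran from -0.22 for Rasgrf2 to 0.76 for Tbr1, with 0.03 for Lamp5 and 0.08 for Emx1. The summed signal of the 10 cortex markers, of which Lamp5 was by far the brightest at 12.33 to 13.20, had r = 0.49 and rho = 0.20 with Nr4a2 (adjusted p of 0.503 and 0.981 by permutation), and spanned 12.95 to 13.44 for Tat-/Meth, 12.72 to 13.15 for Tat-/Sal, 12.65 to 12.98 for Tat+/Meth and 12.63 to 13.10 for Tat+/Sal. The part of cortical tissue in the Nr4a2 values was not tested.

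The wider pathway was called in few places. Among 40 other rapid immediate early genes, 0 were called in each of the 5 comparisons and in the interaction. Of all genes, 6.85% were called for Tat-/Meth vs. Tat-/Sal, 7.23% for Tat+/Meth vs. Tat-/Meth and 7.44% in the interaction. In the other comparisons at most 0.0199% of all genes were called, so a count of 0 tells little there. At an adjusted p under 0.05 with no limit on the fold, 18 of the 40 were higher and 0 lower in Tat-/Meth relative to Tat-/Sal, where 5280 of the 15098 genes tested were higher and 2307 lower, and their median difference was 0.28 against 0.14. The smallest p-values belonged to Gadd45g at 0.47 ± 0.07 (SE), Cebpb at 0.50 ± 0.09 and Csrnp1 at 0.47 ± 0.09, with adjusted p in limma of 4.07e-05, 0.000191 and 0.000223. Zfp36 and Fosl1 of the same list lay below the signal limit and were not among the 40. Zfp36 was lower without overlap, at 3.01 to 4.73 for Tat-/Meth and 5.59 to 5.98 for Tat-/Sal. In this comparison 9.2% of all genes with a value were lower without overlap, and Zfp36 was well above background on 10 of 20 arrays. Fosl1 overlapped, at 4.68 to 5.91 and 3.51 to 5.63. For Tat+/Meth vs. Tat+/Sal, 0 of the 40 passed without the fold limit, where 0.0% of all genes did. The median of the 40 was 0.02 there, against 0.00 over all genes.

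Of 20 late activity-induced genes, 1 was called for Tat-/Meth vs. Tat-/Sal, where 6.85% of all genes were, and this was Bdnf, the neurotrophin. Bdnf spanned 5.31 to 6.29 for Tat-/Meth, 6.62 to 7.45 for Tat-/Sal, 6.54 to 7.31 for Tat+/Meth and 6.30 to 6.77 for Tat+/Sal, so that every Tat-/Meth array lay below the arrays of the other groups. Between Tat-/Meth and Tat-/Sal, 9.2% of all genes with a value did not overlap with Tat-/Meth the lower. Its difference was -1.21 ± 0.19 (SE) between Tat-/Meth and Tat-/Sal, with an adjusted p of 4.01e-05 in limma. Of 24 upstream regulators 0 were called in each of the 5 comparisons and in the interaction. The shares of all genes were 6.85% for Tat-/Meth vs. Tat-/Sal, 7.23% for Tat+/Meth vs. Tat-/Meth and 7.44% in the interaction. They were at most 0.0199% in the other comparisons. Crtc1, a CREB coactivator, had a Tat+/Meth mean above the Tat-/Meth mean by 0.54 ± 0.07 and Elk1, a partner of serum response factor, by 0.49 ± 0.07, while for Mef2d the difference was -0.39 ± 0.06, with adjusted p of 3.26e-06, 5.33e-06 and 1.17e-05 and each under 2-fold.

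Of 13 partners 2 were called for Tat+/Meth vs. Tat-/Meth, where 7.23% of all genes were, and both are retinoid X receptors, the dimer partners of Nr4a1 and Nr4a2. Rxrg ran from 14.94 to 15.16 in Tat-/Meth and from 16.03 to 16.95 over the other groups, and its Tat+/Meth mean exceeded the Tat-/Meth mean by 1.44 ± 0.11 (SE) with an adjusted p of 6.2e-09 in limma. Rxra ran from 6.30 to 6.70 in Tat-/Meth and from 7.06 to 7.91 over the other groups, with a difference of 1.34 ± 0.13 and an adjusted p of 1.59e-07. In this comparison 8.93% of all genes with a value did not overlap with Tat+/Meth the higher. These calls, and that of Bdnf, all involve Tat-/Meth and so cannot be told apart from slide 1.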

How the data were processed

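Feature extraction output of 20 one-colour Agilent arrays was used. The authors deposited, per spot, a background-subtracted processed signal as an intensity, with flags of their software; dye wording differs between methods and files, and the files hold 1 channel. The series matrix, whose intensity values the authors deposited on a linear scale, served as an alternative. Probes are named by RefSeq accessions, which were matched to GRCm38.p6 symbols. Outlier spots were left out (4278 over all arrays), log2 values of a probe's spots were averaged, and arrays were scaled to the 75th percentile. The brightest probe stood for a gene. A gene needed 3 arrays per group and a mean of 6 in at least 1 group, which 15098 genes met.

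Groups were compared in limma 3.58.1 (R 4.3.3) with all 4 groups in 1 fit, and a gene was called at an adjusted p under 0.05 and above 2-fold. In simulated data 97% of 200 genes changed by 2 log2 units were recovered. Only this size was simulated, in 1 group and without a slide effect, so recovery of changes under 2-fold was not measured. Nr4a3 and Ier2 had exact two-sided permutation tests. Pairs were tested on deviations from group means with 100000 two-sided permutations (Python 3.11.15, numpy 2.4.6, scipy 1.17.1). P-values for group differences set them against the spread between mice of a group. Where a group lay on 1 slide, that spread holds no variation between slides. The number of arrays limits precision.

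All 10 genes are named; their fold change and test are given where the unadjusted p was under 0.05. Up to 3 genes of each list were named by smallest p. The 10 genes and the lists were chosen with earlier results of these data known. Alternatives were 5 ways of scaling or background correction, filters on dim probes, probe summaries, slide and replicate blocks, other thresholds, the methods' t-test and each array left out.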

Additional observations from a re-analysis of the deposited data

Results flagged for a closer look

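In 44 sets of 5 arrays, formed by 11 probes in 4 groups, 4 had 1 array far from the other 4 by Dixon's test, and chance flags about 1 in 20. Egr3 read 7.39 in Tat-/Meth replicate 5 against 5.87 to 6.04 on the other 4 arrays. Nr4a1 read 16.44 in Tat-/Sal replicate 2 against 15.77 to 15.92. Nr4a2 read 9.61 in Tat+/Sal replicate 1 against 7.05 to 7.18, and its dimmer probe read 7.96 on that array against 5.45 to 6.08.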

How the results depend on the processing

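The count of 0 genes called was unchanged in every alternative run for Tat+/Sal vs. Tat-/Sal and for Tat+/Meth against either saline group. For Tat-/Meth vs. Tat-/Sal it became 1 with median scaling, with the series matrix values, with probes well above background on every array of a group and with no filter, and the gene was Nr4a3 each time. It became 1 (Npas4) at an adjusted p under 0.05 alone, and leaving out 1 array gave 0 to 1, with Nr4a3 called without Tat-/Meth replicate 1 or 4 because its mean then passed the signal limit. Except with no filter, Nr4a3 entered each of these tests through Tat-/Meth alone, the group where it was high, so these calls were selected on the difference and lend it no support. For Tat+/Meth vs. Tat-/Meth it became 1 (Egr2) at an adjusted p under 0.05 alone. The interaction gave 1 (Ier2, -1.24, adjusted p of 0.0278 in limma) with the series matrix values, and the cause was not tested. Slide as a fixed block could not be fitted for comparisons with Tat-/Meth. Npas4 in Tat-/Meth vs. Tat-/Sal ranged from 0.19 to 0.75 with adjusted p from 0.00451 to 0.506, and Egr2 in Tat+/Meth vs. Tat-/Meth from -0.79 to -0.30 with adjusted p from 0.00989 to 0.415; neither changed direction. Npas4 lost its adjusted p under 0.05 without Tat-/Meth replicate 3 (0.0503) or Tat-/Sal replicate 1 (0.0543), without scaling and in a fit of the 2 groups alone (0.0506), and Egr2 lost its adjusted p under 0.05 without Tat-/Meth replicate 1, 2 or 3 or Tat+/Meth replicate 1 or 2 and without scaling. The methods' t-test called 0 genes with and without adjustment in the 5 comparisons, with the 2-fold limit kept. The number of pairs that varied together was 11 to 20 in the 8 other settings and 12 to 18 with 1 array left out, and the 10 pairs of Egr1, Egr2, Egr4, Nr4a1 and Arc passed in all 28. These 28 settings reuse the arrays on which the 10 pairs had passed, so they lend the pairs no separate support. In deviations from group means over all genes, same-numbered arrays of different groups had r from -0.18 to 0.36, above 0.1 in 7 of 30 pairs. The numbers were not taken to pair samples. With the replicate block 0 genes were called in each comparison and 17 pairs varied together. Dim probes limit Nr4a3, Ier2 and Egr3.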

Other observations

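In a choice made after seeing the data, each of the 8 genes was divided by its SD before averaging. The genes most like this mean were Fos (r = 0.87), Nrg1 (0.84), Dusp14 (0.80), C230012O17Rik (0.80), Akap12 (0.80) and Phlda1 (0.76). Rab32, Hbb-b1, Islr, Dscam and Tmem178 were not among the first 10. For Arc alone the 10 most like genes included Fos (r = 0.82), Dusp14 (0.79), Tiparp (0.78), Crem (0.77) and Mcl1 (0.76) over 20 arrays. For Egr3 they were led by Ssc5d with r = 0.81 and rho = 0.56, and for Npas4 by Dusp14 with r = 0.78 and rho = 0.56.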
